A study of Mus musculus with 3 samples.

Results

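Collagen genes were described in the developing mouse ureter, the tube that carries urine between kidney and bladder, on the 3 arrays of the series. Members were all genes whose symbol is Col, a type number, a and a chain number, taken from probe sets annotated to exactly 1 gene symbol. This gave 82 probe sets for 42 collagen genes, among 18194 genes named on the array. Col6a6 and Col28a1 had no such probe set, so their signals were not analysed here. The samples form 1 group of 3 ureter samples (replicates 3, 8 and 9), microdissected between renal pelvis and bladder and not pooled. The embryos were wild-type and of the FVB/N strain, their stage was E15 (TS23) and their sex unknown, and no treatment is listed. RNA went through 2 rounds of amplification and was hybridised to 1-colour Affymetrix Mouse Genome 430 2.0 arrays. Whether each sample stands for its own embryo or litter is not stated, and the spread among the 3 may be partly technical. With no second group, nothing was compared between conditions and no test was made.

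Collagens are trimers of chains that wind into a triple helix, and the chains of 1 trimer are often encoded by different genes. Fibrillar collagens give connective tissue its tensile strength, type IV collagen forms the sheet-like network of basement membranes under epithelia and around smooth muscle cells, and the fibril-associated collagens with interrupted triple helices (FACIT) sit on the surface of fibrils. Other classes form beaded filaments, anchoring fibrils, hexagonal networks or transmembrane proteins, or carry heparan or chondroitin sulphate chains in basement membrane zones (multiplexins). In the embryonic ureter, mesenchymal cells around the epithelial tube become smooth muscle and fibroblasts, and a basement membrane separates them from the epithelium.

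The sequences before the annotated starts of 5 genes are shown because these genes carry the results below: a type I and the type III fibrillar chain gene, the pair of type IV genes that varied together, and Col9a1, which has 2 annotated starts. They are RefSeq sequences of build GRCm38.p6, each the 250 bases before a start, 5′ to 3′ on the gene's strand. Capitals mark 3 motifs on either strand: the CCAAT box, the GC box GGGCGG and the TATA-like string TATAAA.
Col3a1, chr1:45311288-45311537, plus strand: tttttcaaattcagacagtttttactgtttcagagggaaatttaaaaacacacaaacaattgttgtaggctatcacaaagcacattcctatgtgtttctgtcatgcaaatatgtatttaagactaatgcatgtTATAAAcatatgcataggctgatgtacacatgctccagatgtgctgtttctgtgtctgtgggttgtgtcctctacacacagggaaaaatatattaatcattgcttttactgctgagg
Col1a2, chr6:4505368-4505617, plus strand: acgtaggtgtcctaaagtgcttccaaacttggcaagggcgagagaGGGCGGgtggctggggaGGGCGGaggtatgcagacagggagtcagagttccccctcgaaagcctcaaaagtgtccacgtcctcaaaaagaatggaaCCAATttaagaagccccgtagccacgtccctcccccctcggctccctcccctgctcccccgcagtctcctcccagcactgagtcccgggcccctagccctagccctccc
Col4a5, chrX:141475169-141475418, plus strand: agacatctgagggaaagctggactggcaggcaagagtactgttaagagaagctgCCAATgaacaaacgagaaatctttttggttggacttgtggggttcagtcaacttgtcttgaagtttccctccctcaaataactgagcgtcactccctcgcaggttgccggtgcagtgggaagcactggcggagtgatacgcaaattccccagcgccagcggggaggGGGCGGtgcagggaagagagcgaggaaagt
Col4a6, chrX:141474077-141474326, minus strand: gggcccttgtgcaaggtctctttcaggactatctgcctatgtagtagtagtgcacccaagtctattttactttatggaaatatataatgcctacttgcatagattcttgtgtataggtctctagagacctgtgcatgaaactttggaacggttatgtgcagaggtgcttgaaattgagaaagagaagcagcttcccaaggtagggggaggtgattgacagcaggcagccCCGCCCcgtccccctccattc
Col9a1, upstream start, chr1:24177360-24177609, plus strand: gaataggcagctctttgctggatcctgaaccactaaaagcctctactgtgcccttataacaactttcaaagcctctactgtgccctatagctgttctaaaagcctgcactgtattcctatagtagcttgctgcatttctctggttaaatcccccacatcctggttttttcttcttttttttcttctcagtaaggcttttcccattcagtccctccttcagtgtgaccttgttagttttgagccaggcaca
Col9a1, downstream start, chr1:24194953-24195202, plus strand: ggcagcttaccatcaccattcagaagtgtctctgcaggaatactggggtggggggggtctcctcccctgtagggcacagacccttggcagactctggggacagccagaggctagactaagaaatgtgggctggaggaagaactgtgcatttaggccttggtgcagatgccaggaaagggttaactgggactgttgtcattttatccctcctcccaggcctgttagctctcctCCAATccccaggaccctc
Over all 32851 such windows of the genome, CCAAT was found in 33.8%, GGGCGG in 32.7% and TATAAA in 12.4%. Of 38 windows of 35 collagen genes, Col6a6 and Col28a1 included, 13 held CCAAT, 22 GGGCGG (57.9%) and 5 TATAAA. The median GC content was 59.0% in the collagen windows, against 52.4% in all windows, and its part in the GGGCGG count was not tested. A match is a string of letters and not a known binding site.

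A gene was represented by its brightest probe set, that with the highest mean log2(signal + 1). It was called above background when its signal exceeded, on each of the 3 arrays, the 95th percentile of 34 genes typical of other organs, such as photoreceptor, sperm, lens, milk, pancreas and pituitary genes. The thresholds were signals of 228, 277 and 379.6 in replicates 3, 8 and 9, so the same signal could pass in replicate 3 and not in replicate 9. Of 42 collagen genes, 31 (73.8%) were above background, against 58.4% of all named genes. Another 3 exceeded it on 1 or 2 arrays and 8 on none. The median of the members' mean log2 values was 10.22, against 9.53 over all named genes. Probe sets differ in brightness for reasons other than transcript amount, so signals of different genes, which are intensities here, were not ranked as transcript levels.

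**Figure D1:**
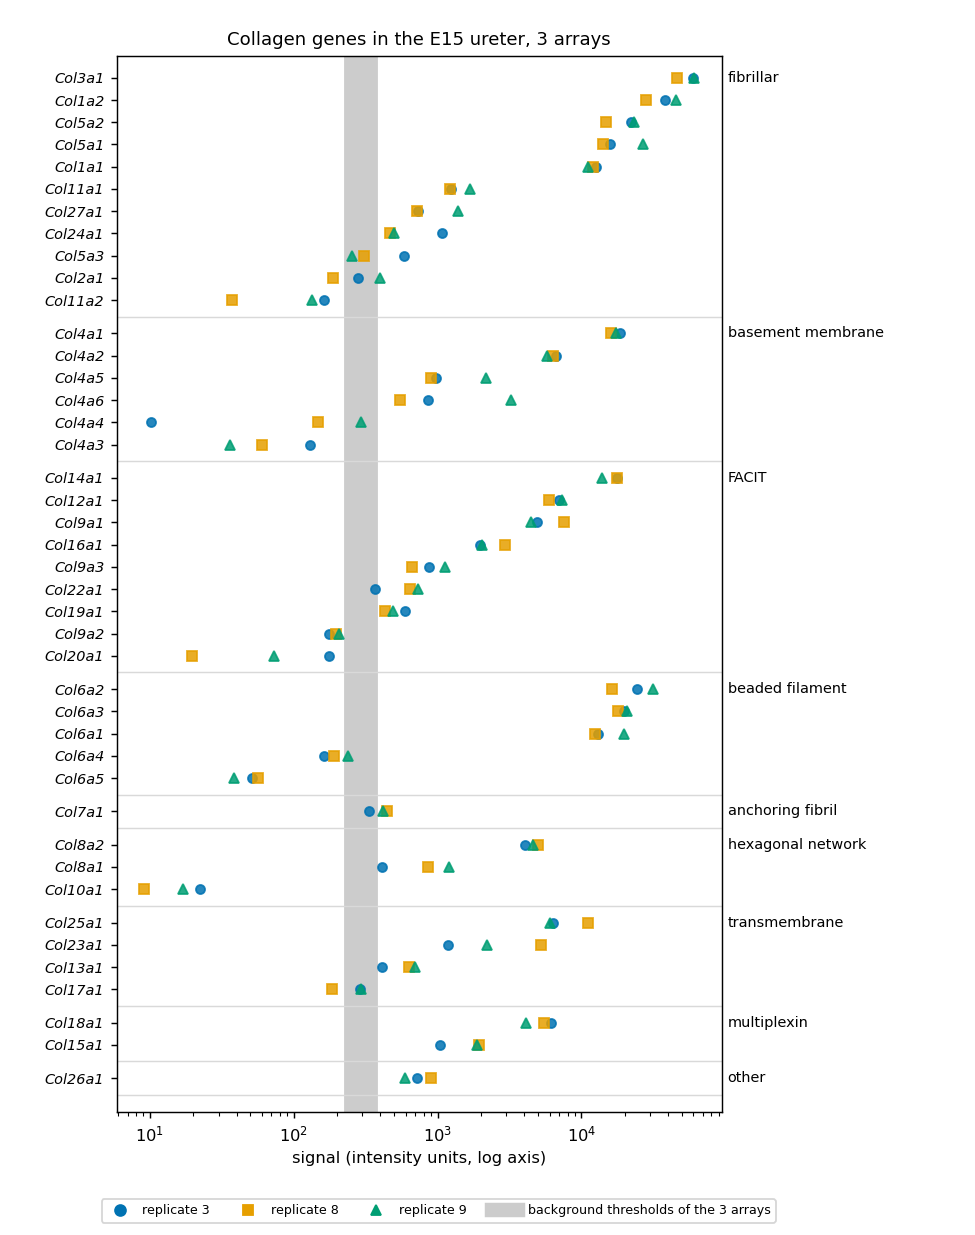
Signal of each collagen gene (log axis, intensity units) in replicates 3, 8 and 9, grouped by class, with the range of the 3 background thresholds in grey. The chains of types I, III, V and VI other than Col5a3, Col6a4 and Col6a5 lie far to the right of the band, and 8 genes have no point above their array's threshold.

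Among fibrillar collagens, 8 of 11 genes were above background. Col3a1, whose chain forms the homotrimer of type III in distensible tissues, had signals of 59549, 46113 and 60603 in replicates 3, 8 and 9. Of the type I chain genes, whose products form the main fibril of connective tissue, Col1a2 had 38365, 28308 and 45723. Col1a1, the other type I chain, had signals of 12553, 11956 and 11112. Both chains of the main type I trimer were thus above background on every array, and their SDs on the log2 scale were 0.09 for Col1a1 and 0.35 for Col1a2. A dimmer Col1a1 probe set spread more, with signals of 1158, 344 and 635.

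Type V collagen nucleates fibrils and limits their width. Col5a1 had signals of 15812, 14186 and 26626 in replicates 3, 8 and 9, and Col5a2 22218, 14781 and 23250.0. Both were lowest in replicate 8 and highest in replicate 9. A second Col5a2 probe set had this order too but was nearly level, with 14772, 14589 and 15392. Col5a3, a chain of minor type V trimers, had signals of 581, 306 and 253, above background in replicates 3 and 8 and below it in replicate 9. In RefSeq's order of protein-coding genes Col5a2 lies next to Col3a1, and both had their lowest signal in replicate 8.

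The cartilage-type fibrillar chains were split. Col11a1, a chain of type XI, was above background with signals of 1244, 1211 and 1678 in replicates 3, 8 and 9, and its second probe set was too (823, 401 and 431). Col11a2, its partner chain, was below background on every array (162, 37.0 and 133). Col2a1, which encodes type II collagen of cartilage and also supplies a chain of type XI, had signals of 281, 188 and 396, above background in replicates 3 and 9. Thus 1 of the 3 genes of the type XI trimer was above background on all arrays. Among cartilage markers, 2 of 8 (Hapln1 and Sox9) were above background on all arrays. Acan, Comp and Snorc exceeded it in replicate 3 alone (566, 331 and 309) and Matn1 in replicate 8 alone (303). Cnmd and Matn3 did so on no array, and Matn3 had signals of 26.3, 8.86 and 73.5. The late-described fibrillar chains Col27a1 (727, 715 and 1388) and Col24a1 (1081, 469 and 495) were above background. Col27a1 was highest in replicate 9 by this probe set, whereas its second one gave 828, 929 and 898. Col24a1 was highest in replicate 3, where it stood 2.31 times above its lowest signal.

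In the basement membrane class, 4 of 6 type IV genes were above background. Col4a1 and Col4a2, whose chains make the trimer found in nearly all basement membranes, had steady signals. Col4a1 had 18660.2, 16088 and 17503 in replicates 3, 8 and 9, and Col4a2 6685, 6362 and 5776. The highest signal of each was 1.16 times its lowest. These genes lie head to head with annotated spans that overlap at their starts, so the 250 bases before each start lie within the other gene. Those stretches do not overlap each other, and RefSeq windows that also run past the starts share 78 bases. A second Col4a1 probe set gave 1785, 2251 and 2870.0, in another order of the replicates.

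Col4a5 and Col4a6, whose chains form the trimer of some epithelial and smooth muscle basement membranes, are neighbours on the X chromosome with 1343 bases between their annotated starts. Col4a5 had signals of 979, 896 and 2182 in replicates 3, 8 and 9. Col4a6 had 854, 544 and 3215. Both genes were highest in replicate 9 and lowest in replicate 8, with log2 ranges of 1.28 and 2.56, and Col4a6 had the widest range of all collagen genes above background. Their other probe sets were also highest in replicate 9: the second of Col4a5 gave 419, 536 and 2148, and the second of Col4a6 376, 230.4 and 515, which was not above background in replicate 8. The start windows printed above share GGGCGG, which lies 1 time in each, and CCAAT is found only in that of Col4a5. Xist, the RNA of X inactivation, was also highest in replicate 9 by each of its 3 probe sets (1085, 1197 and 2093 by the brightest). Its other probe sets spread more and were lowest in replicate 8, with signals of 188, 7.69 and 868, and of 24.1, 1.55 and 96.3. Its part in the result was not tested.

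The chains of the trimer of mature glomerular and lung basement membranes were not detected apart from Col4a5. Col4a3 had signals of 129.9, 60.2 and 36.0 in replicates 3, 8 and 9, and Col4a4 10.2, 147 and 295, all below background. None of the 5 probe sets of Col4a3 and Col4a4 exceeded it on any array.

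**Figure D2:**
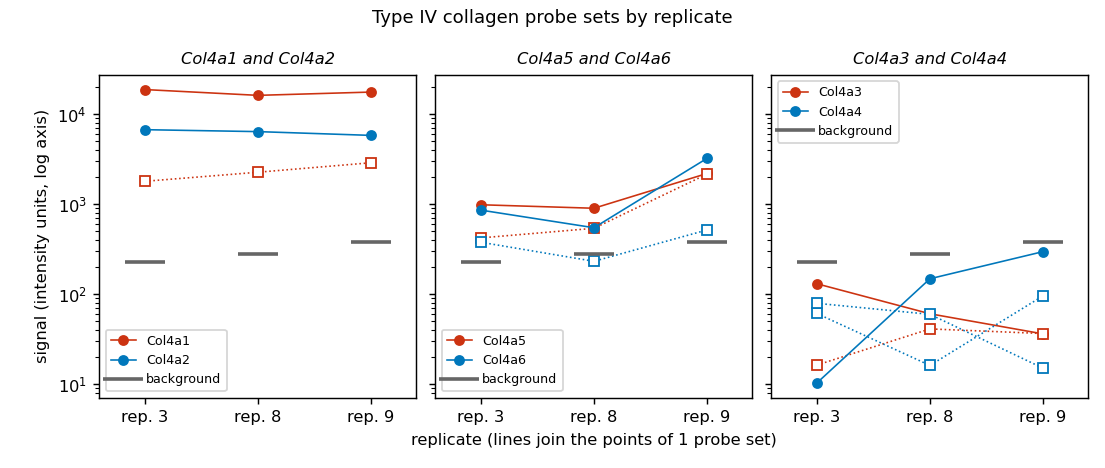
Signal of each type IV probe set (log axis, intensity units) in the 3 replicates, with filled circles for the probe set used, open squares for the others and bars for the array's background threshold. The probe sets used for Col4a1 and Col4a2 run level, the second of Col4a1 is highest in replicate 9, all probe sets of Col4a5 and Col4a6 are highest in replicate 9, and those of Col4a3 and Col4a4 lie under the bars.

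Of the FACIT genes, 7 of 9 were above background, but 3 when all probe sets of a gene were averaged, which lost Col12a1, Col19a1, Col22a1 and Col9a3. Col14a1 and Col12a1 encode proteins that bind type I fibrils: Col14a1 had signals of 17597, 17654 and 13809.8 in replicates 3, 8 and 9, and Col12a1 6938, 5963 and 7306. Their SDs were 0.20 and 0.15 on the log2 scale. A second Col12a1 probe set above background spread more, with signals of 286, 332 and 552. Col16a1, whose product lies beside fibrils and near basement membranes, had 1981, 2935 and 2045 and was highest in replicate 8.

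Type IX collagen coats the fibrils of cartilage as a trimer of 3 different chains. Col9a1 had signals of 4887, 7552 and 4433 in replicates 3, 8 and 9, and Col9a3 had 873, 666 and 1117. Col9a2 was below background on every array (175, 196 and 206). Thus 2 of the 3 genes of the trimer were above background, and they did not peak in the same replicate. A second Col9a1 probe set, also highest in replicate 8, gave 359.9, 510.1 and 199. The 2 annotated Col9a1 starts printed above lie in separate windows, and the files do not say which transcript form a probe set reads. The summed signal of the 8 cartilage markers was 3134, 4031.5 and 2285 in replicates 3, 8 and 9. Hapln1 (1188, 1975 and 916) and Sox9 (383, 894 and 424), the ones above background, were highest in replicate 8 as was Col9a1. Of the others, Matn1 and Cnmd were highest there too, Acan, Comp and Snorc in replicate 3 and Matn3 in replicate 9. The part of cartilage in the Col9a1 signal was not tested.

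The remaining FACIT genes were closer to the threshold. Col22a1, whose product is known from the muscle-tendon junction, had 369, 641 and 729 in replicates 3, 8 and 9. Col19a1, a neighbour of Col9a1 with known roles in muscle and basement membrane zones, had 593, 431 and 489. For both, 1 of 3 probe sets was above background on all arrays. The 6 skeletal muscle markers, among them Myh3, Acta1, Mylpf and Tnnt1, were all above background, with summed signals of 77998, 69455 and 67809, and so were the tendon markers Mkx, Tnmd and Scx (summed 2994, 2333 and 1694). Scx was only just above the threshold in replicate 9 (389 against 379.6). The part of either tissue in the Col22a1 and Col19a1 signals was not tested. Col20a1 was below background with each of its 4 probe sets (176, 19.5 and 73.3 by the one used).

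Type VI collagen forms beaded filaments around cells, with 1 chain from each of 3 genes. All 3 were above background, whereas Col6a4 (163, 190.1 and 238 in replicates 3, 8 and 9) and Col6a5 (51.6, 56.1 and 38.2), which encode alternative chains, were below it on every array. Col6a1 had signals of 12966, 12467 and 19775. Col6a2, its neighbour in the genome, had 24314, 16296 and 31451. Col6a3, the largest chain of the trimer, had 19713, 18050.2 and 20734. Each of the 3 was lowest in replicate 8 and highest in replicate 9, and the difference was smallest for Col6a3 (1.15 times) and largest for Col6a2 (1.93 times).

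The hexagonal network genes included Col8a2, with signals of 4019, 5009 and 4613 in replicates 3, 8 and 9, and Col8a1, with 414, 861 and 1202. They encode the 2 chains of type VIII, known from vessel walls and the cornea. Col8a1 was lowest in replicate 3, and its other 2 probe sets were below background on every array (at most 177). Col10a1, the type X gene of hypertrophic cartilage, was below background on every array (22.3, 9.17 and 17.0). Bone markers were above background on all arrays for 1 of 3 genes, Sp7, while Ibsp exceeded it in replicate 8 alone and Alpl in replicate 3 alone. Sp7 was only just above the threshold in replicates 3 (228.9 against 228.2) and 9 (390.4 against 379.6).

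Of the transmembrane collagens, 3 of 4 were above background. Col25a1, made by neurons and by embryonic muscle in the mouse, had signals of 6339.9, 11073 and 6063 in replicates 3, 8 and 9. Its other probe set gave 199, 377 and 238 and exceeded background in replicate 8 alone. Col23a1 had 1188, 5262 and 2188, a range of 2.15 on the log2 scale, and a second probe set moved alike (437, 2224 and 977). Both genes were highest in replicate 8, whereas the third Col23a1 probe set was highest in replicate 9 (11.7, 179 and 631). Col13a1, a gene of the neuromuscular junction and other adhesion sites, had 409, 632 and 695. The neuron and glia markers, 3 of 4 above background (Stmn2, Fabp7 and Elavl4, not Sox10), summed to 4355, 9242.5 and 12298. The sum was thus lowest in replicate 3, as were Col23a1 and Col13a1, whereas Col25a1 was lowest in replicate 9. Sox10 was lowest in replicate 8 (307, 206 and 632). The part of neurons and glia in the collagen signals was not tested.

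Both collagen genes of the epithelial anchoring complex lay near the threshold. Col7a1, which encodes the anchoring fibril under stratified epithelia, was just above it with 335, 442 and 417 in replicates 3, 8 and 9. Col17a1, the transmembrane collagen of hemidesmosomes, had 288, 185 and 295. It exceeded the threshold in replicate 3 alone, where the threshold was lowest, although its signal was highest in replicate 9. The basal epithelial genes Krt5, Krt14, Krt15 and Trp63 were above background on every array, with summed signals of 12515, 9308 and 11009.

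The multiplexin genes were both above background. Col18a1, whose product is a heparan sulphate proteoglycan and the source of endostatin, had signals of 6187, 5489 and 4109 in replicates 3, 8 and 9, and its second probe set gave 2775, 2769 and 4197. The 2 probe sets thus put opposite replicates highest. Col15a1, found under endothelium and around muscle, had 1034, 1951 and 1890.4. Col26a1, which falls in none of these classes, had 721, 897 and 589 from 1 of its 2 probe sets. In whole tissue, fewer cells of a type and less RNA per cell cannot be told apart.

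Calls rested in part on which probe set was read. Of 27 collagen genes with several probe sets, 10 had all of them above background, 5 had none and 12 had some. In 15 genes with at least 2 probe sets above background, the brightest was between 1.07 and 50.5 times as bright as the dimmest, the widest ratio being that of Col1a2. For 9 of the 15 genes these probe sets had their highest signal in the same replicate. The exceptions were Col1a2, Col3a1, Col11a1, Col27a1, Col4a1 and Col18a1, so that the order of the replicates is not settled for these genes.

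**Figure D3:**
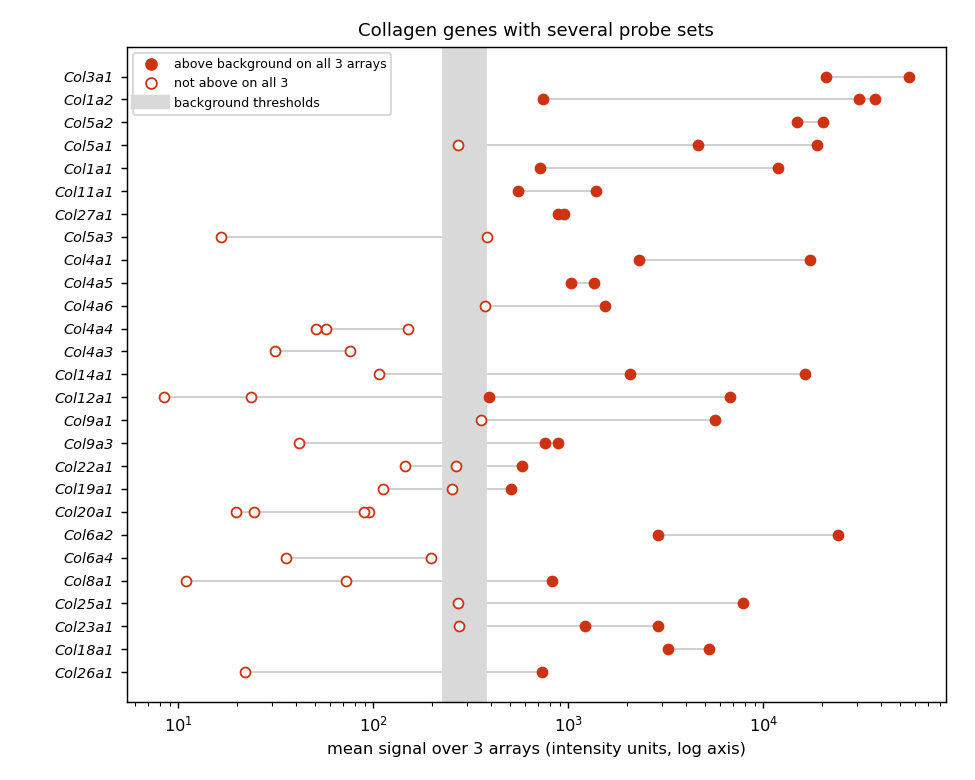
Mean signal over the 3 arrays (log axis, intensity units) of every probe set of the 27 collagen genes with several, filled where it was above background on all 3 arrays, with the range of the thresholds in grey. For 12 genes filled and open points share a line, as for Col12a1 with 2 of each.

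Over the 31 collagen genes above background, the median range between replicates was 0.67 on the log2 scale (median SD 0.36), against 0.55 (median SD 0.29) over all 10623 named genes above background. A range of at least 1, a doubling, was reached by 5 of the 31: Col4a6 (2.56), Col23a1 (2.15), Col8a1 (1.54), Col4a5 (1.28) and Col24a1 (1.20). The share over all genes above background was 15.8%. Of all 42 collagen genes 12 reached it, against 34.6% of all named genes, and 6 did so without replicate 3, 6 without replicate 8 and 7 without replicate 9, as a range over 2 arrays can only be smaller.

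The replicates differed in how the collagen genes sat. Of the 31 genes, 16 were highest in replicate 9 (32.2% of all genes above background were), 9 in replicate 8 (34.8%) and 6 in replicate 3 (33.0%). These counts read the probe set used. Col1a2, Col3a1, Col11a1 and Col27a1, counted in replicate 9, had another probe set above background that was highest elsewhere. So had Col4a1 and Col18a1, counted in replicate 3. Replicate 8 was lowest for 16 of them, against 30.5% of all genes above background. After the array's median deviation was taken off, the median deviation of the collagen genes from their own means came to −0.14, −0.13 and 0.15 in replicates 3, 8 and 9. Over all 42 collagen genes the replicate 3 value was 0.0085, quantile normalization gave −0.06 in replicate 8, and averaged probe sets gave 0.06 in replicate 9. By class, no fibrillar, type IV or type VI gene above background was highest in replicate 8 by the probe set used, and the medians there were −0.36, −0.31 and −0.26. Of the 3 transmembrane genes, 2 were highest in replicate 8, where their median was 0.54, and Col13a1 was highest in replicate 9.

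Other measures also differed between the replicates, and their part in these orders was not tested. Control probe sets near the 3′ end of beta-actin were 7.46, 6.50 and 4.0 times as bright as those near its 5′ end in replicates 3, 8 and 9, so that the ratio was lowest in replicate 9. For Gapdh the ratios were 18.9, 15.1 and 16.4. The 4 liver markers measured (Afp, Alb, Ttr and Apoa1), all above background, summed to 179934, 105608 and 151058, lowest in replicate 8. The summed fibrillar collagen signal was also lowest there (152573, 118268 and 171658). Col1a1 and Col5a3, however, were lowest in replicate 9 by the probe set used, as was Col1a2 by its second probe set. The ureteric mesenchyme and smooth muscle markers, 5 of 6 above background (Acta2, Tbx18, Actg2, Tagln and Myh11, not Cnn1), summed to 46861, 54820.4 and 46214, with a replicate 8 sum carried by Tbx18 (7828, 20079 and 7442). Actg2 was also highest in replicate 8, whereas Acta2 was lowest there and Tagln and Myh11 were highest in replicate 3. The urothelial markers, 4 of 7 above background (Krt8, Krt18, Foxa1 and Upk1b, not the uroplakin genes Upk1a, Upk2 and Upk3a), summed to 32457, 40999 and 29143. Krt8, Krt18 and Foxa1 were highest in replicate 8 and Upk1b in replicate 3. The endothelial markers, 4 of 5 above background (Tek, Cdh5, Cldn5 and Kdr, not Pecam1), summed to 10498, 9234 and 7931. Tek, Cdh5 and Cldn5 were highest in replicate 3, whereas Kdr was lowest there and highest in replicate 9 (1049, 1442 and 2950).

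**Figure D4:**
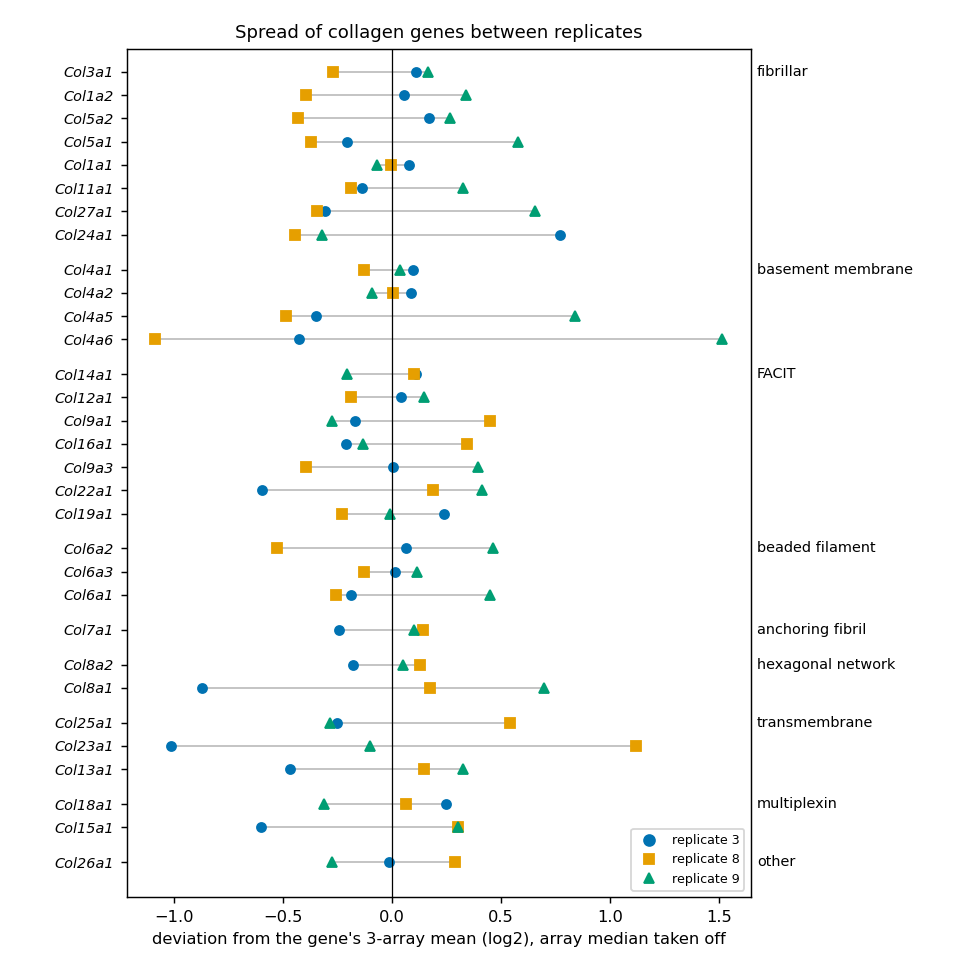
Deviation of each collagen gene above background from its own mean over the 3 arrays (log2), after the array's median deviation was taken off, with a point per replicate. Fibrillar and type VI genes mostly have replicate 8 on the left and replicate 9 on the right, while Col25a1, Col23a1, Col9a1 and Col16a1 have replicate 8 on the right.

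Genes that modify, cut, crosslink or bind collagen were described beside their substrates. Of 46 measured, 35 (76.1%) were above background, against 58.4% of all named genes. The chain modification and folding list had 17 of 19. P4hb, which encodes the beta subunit of prolyl 4-hydroxylase, had a mean signal of 36051 ± 2821 (SD, n = 3, as for the other means here), the cyclophilin gene Ppib 21792 ± 2727, the collagen chaperone gene Serpinh1 13807 ± 1216 and Crtap, of the prolyl 3-hydroxylation complex, 8092 ± 376. P4ha3 (154 ± 40.6) was below background and Colgalt2 (205 ± 107) exceeded it in replicate 8 alone. The catalytic subunit genes of the prolyl 4-hydroxylase differed in spread: P4ha1 had signals of 2863, 2871 and 2943 in replicates 3, 8 and 9, and P4ha2 1965, 3175 and 5546. Mia3, which encodes a protein that loads collagen into transport vesicles, was highest in replicate 9 (1374, 1233 and 6463).

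Propeptide cleavage genes were above background for 4 of 6. They were Pcolce (11085 ± 5163), which enhances C-propeptide removal, the C-proteinase gene Bmp1 (2095 ± 241), the N-proteinase gene Adamts3 (846 ± 609) and Pcolce2 (521 ± 122). The Bmp1 relatives Tll1 (86.5 ± 61.0) and Tll2 (7.98 ± 4.42) were not. The crosslinking enzyme gene Lox had signals of 12732, 12890.4 and 11663 in replicates 3, 8 and 9, Loxl1 averaged 3285 ± 1199.6 and Loxl3 1265 ± 224, while Loxl4 (222 ± 120.1) exceeded background in replicate 3 alone.

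Fibril assembly partners were above background for 6 of 8, with Lum at 21676 ± 7147, Fn1 at 20585 ± 3879, Bgn at 14692 ± 4504 and Sparc at 12069.6 ± 2041. These encode the proteoglycans lumican and biglycan, fibronectin and the collagen-binding protein osteonectin. Kera (253 ± 27.0) and Tnxb (236 ± 179) exceeded background in replicate 3 alone. The Kera signals were 275, 223 and 261 in replicates 3, 8 and 9, so that of replicate 9 was close to that of replicate 3 but under a higher threshold. Collagen receptor genes were above background for 5 of 9 (55.6%), against 58.4% of all named genes. The receptor tyrosine kinase genes Ddr2 and Ddr1 had 4651 ± 1524 and 2830.2 ± 1491, the endocytic receptor gene Mrc2 3568 ± 522 and the integrin gene Itgb1 2848 ± 1038. Its partner Itga1 (664 ± 159) was the fifth. Itga2 (234 ± 119.6) exceeded background in replicate 8 alone, and Itga10 (232 ± 70.7), the leukocyte receptor gene Lair1 (67.8 ± 20.9) and the platelet receptor gene Gp6 (90.2 ± 67.3) on no array.

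**Figure D5:**
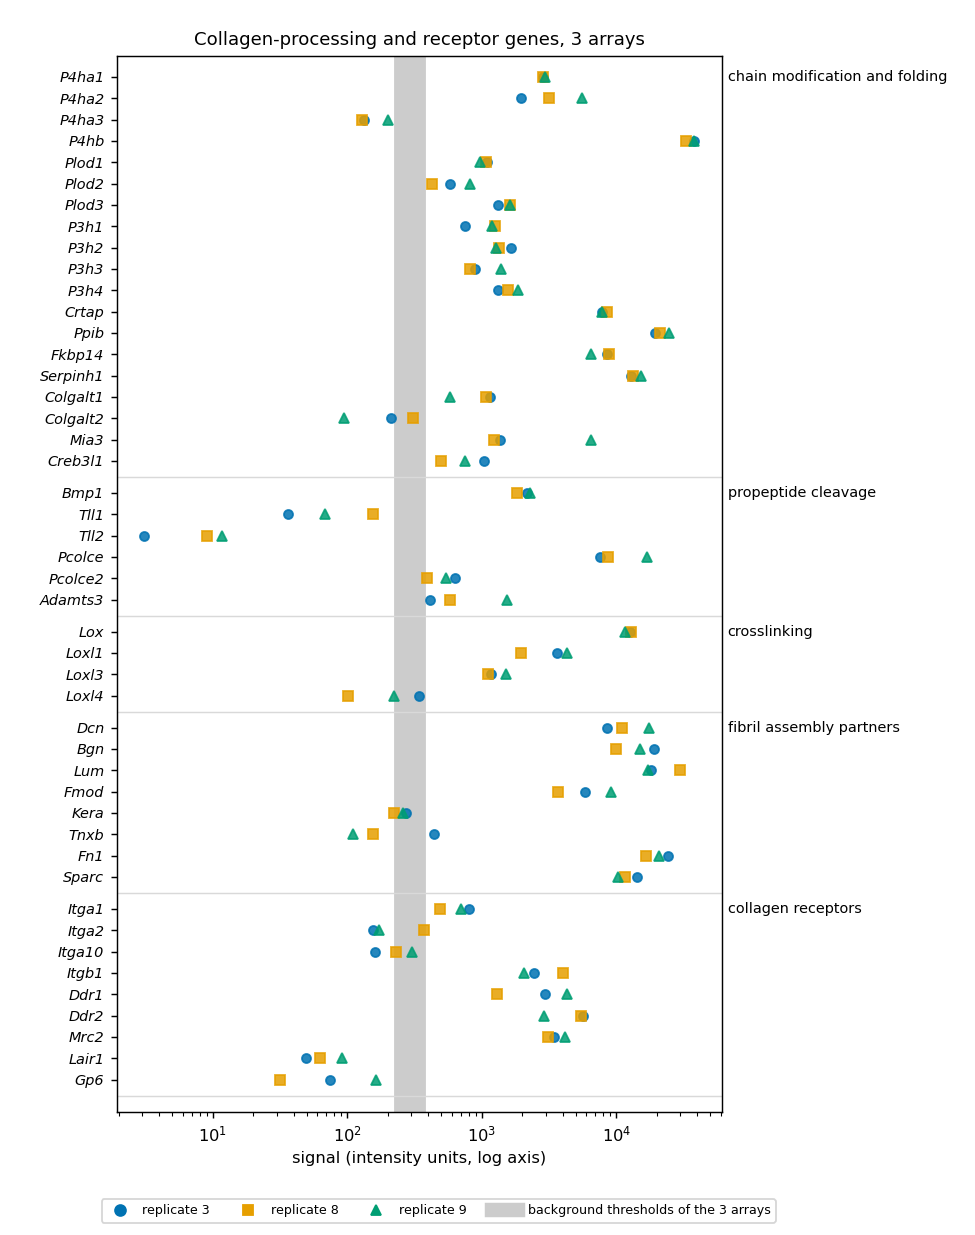
Signal of each measured gene for collagen modification, cleavage, crosslinking, assembly and reception (log axis, intensity units) in replicates 3, 8 and 9, with the range of the background thresholds in grey. Points of P4hb, Ppib, Serpinh1, Lox and Lum lie far to the right of the band, and those of Tll1, Tll2, Lair1 and Gp6 to its left.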

How the data were processed

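RNA of 3 ureter samples was amplified and hybridised to Affymetrix arrays, per the labels' protocols. The deposited values are linear intensities, 1 signal for each of 45101 probe sets and 3 arrays. Per the submitters' processing notes the GCOS software was used; its version is not given in the sources here. The 2% trimmed mean of the deposited intensities was 1500.0 on each array, so a level is relative to the rest of its array.

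Probe sets were named through GEO's platform annotation: 34958 had 1 symbol, 932 several and 9211 none. All 82 collagen probe sets matched the same symbol by Entrez ID in the GRCm38.p6 gene table. Values were analysed as log2(signal + 1) with Python 3.11.15, numpy 2.4.6 and pandas 2.3.3. Detection calls were not used here, so background came from a reference list of 40 genes of other tissues, 34 of them measured, of which 1 (Cbln1) was above background on every array. The functions were tested on simulated data.

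The rule for named genes gave signals on each array for members above background on at least 1 array, and for other lists up to 4 bright genes and those not above background. Mia3, P4ha1, P4ha2, Itga1 and Xist were named after their values were seen. Members and lists were chosen with earlier results of these data known. With 3 arrays, precision is low for each level. Alternatives covered normalization, pseudocounts of 16 and 64, the choice of probe sets, the percentile of the reference list, the number of arrays and leaving out each replicate.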

Additional observations from a re-analysis of the deposited data

How the results depend on the processing

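The count of 31 collagen genes above background stayed within 1.5 times under every alternative run, between 24 and 33. It was 24 when all probe sets of a gene were averaged, where 46.4% of all named genes were above background, and 24 when the threshold was the 99th percentile (50.5%). With averaged probe sets, FACIT genes above background numbered 3 in place of 7, Col12a1, Col19a1, Col22a1 and Col9a3 being lost. The 99th percentile lost Col13a1, Col19a1, Col22a1, Col24a1, Col26a1, Col7a1 and Col8a1. Col22a1 was also lost when _x_at and _s_at probe sets were dropped. Above background on at least 2 arrays were 33 (63.3%), with Col2a1 and Col5a3. An alternative chosen after seeing the data, the reference list without Cbln1, gave 31 (60.5%). Collagen genes with a range of at least 1 numbered 12, but 5 among those above background only, and between 6 and 7 without 1 replicate. Leaving out 1 replicate gave 31 to 32 collagen genes above background (59.0 to 61.8% of all named genes). By class, these were 8 to 9 fibrillar genes, and 4, 7 and 12 of the type IV, FACIT and other classes. Processing and receptor genes then numbered 35, against 24 with averaged probe sets and 32 at the 99th percentile. Without 1 replicate, a call needed only the 2 arrays left, so for the same probe set no gene could lose its call. A pseudocount could change a call only through the choice of probe set. The median deviation of the collagen genes ranged over the alternatives run between −0.14 and 0.0085 in replicate 3, −0.15 and −0.06 in replicate 8, and 0.06 and 0.17 in replicate 9. No paired analysis was possible because the series has 1 group. Single-gene levels moved by more than their SD in 29 of 336 recomputed values, 20 of them with averaged probe sets. Many of the 336 could not move so far. Leaving out 1 of 3 replicates shifts a mean by less than the SD when the probe set stays the same. Averaging cannot move the 15 genes with 1 probe set, so the 20 are among the 27 genes with several. Signal over background limits the calls near the threshold, such as Col7a1, Col2a1, Col5a3 and Col17a1, and those of the markers Sp7 and Scx.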
